A study of Mus musculus with 111 samples.

Results

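The comparison described here set microglia sorted from the striatum of zQ175 mice at 12 months of age against microglia from WT mice of that age. Its 8 samples, 4 zQ175 (replicate numbers 30 to 33) and 4 WT (34 to 37), were taken by genotype, age and sort labels from a series of 111 samples. That series profiled sorted striatal cells of 2 mouse models of Huntington's disease on Affymetrix expression arrays, in 24 groups by genotype, age and sorted fraction. The zQ175 line (labelled Q175) carries an expanded repeat in its own huntingtin gene, Htt, so the mutant protein is made in every cell that uses the Htt promoter, and WT mice carry no mutant allele. All 8 samples are labelled GLT1-/CD11b+, that is, cells without the astrocyte glutamate transporter GLT1 (encoded by Slc1a2) and with the myeloid integrin subunit CD11b (encoded by Itgam). The striata of a litter were pooled by genotype after removal of the subventricular zone, so each sample is a pool of mice and the p-values measure the spread between these pooled samples. Neither the copy number of the zQ175 allele nor the number of mice in a pool is known here.

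Microglia are the resident macrophages of the brain. In the healthy brain they express a homeostatic set of genes that includes the purinergic receptor P2ry12 and the fractalkine receptor Cx3cr1. Around amyloid plaques, dying neurons and damaged myelin, microglia are known to take up a state called disease-associated, in which genes of lipid handling and phagocytosis such as Apoe, Lpl, Cst7, Itgax and Clec7a are higher and part of the homeostatic set is lower.

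The sort labels were checked on markers first. Over the 17 homeostatic microglia markers, the mean log2 array signal was 12.47 ± 0.07 in zQ175 and 12.54 ± 0.07 in WT microglia (SD, n = 4 each), against 6.19 ± 0.13 in WT astrocytes of the same age. Itgam was at 8.76 ± 0.48 in zQ175 and 9.04 ± 0.29 in WT microglia. Slc1a2 was at 9.16 ± 0.37 and 9.34 ± 0.74, below the 13.28 of the WT astrocyte fraction at 6 months but not absent. Htt was at 8.78 ± 0.24 in zQ175 and 9.06 ± 0.27 in WT, a difference of -0.28 that did not pass the test (limma, adjusted p = 0.761). The probe sets measure the amount of Htt RNA and not its repeat, so they do not check the genotype.

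A pair of samples stood apart on markers of other cell types. In zQ175 sample 31, the endothelial markers had a mean of 9.83, against 8.20 to 8.58 in the other zQ175 samples and 7.46 to 8.13 in WT. The mural and fibroblast markers, from pericytes and vessel walls, were at 8.32 in sample 31, against 6.02 to 6.54 in the other zQ175 samples. The zQ175 sample numbered 31 of the doubly negative fraction also stood apart. Its homeostatic microglia markers had a mean of 10.245, against 6.889 to 7.181 in the other zQ175 samples of that fraction. Mixing of cells between the fractions was not tested. In WT sample 34, the oligodendrocyte and myelin markers had a mean of 7.92, against 9.20 to 9.58 in the other WT samples and 10.06 to 10.36 in zQ175. Calls of the named genes described here that were lost without either sample are given beside them.

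Of 12201 genes tested, 384 were called different at a Benjamini-Hochberg adjusted p below 0.05 (3.15% of those tested), 342 of them higher in zQ175 (2.8%) and 42 lower (0.344%). The 4 zQ175 and 4 WT samples did not overlap for 333 of the higher and 38 of the lower genes, beside non-overlap in 6.42% and 3.04% of all genes tested. A difference of more than 2-fold was seen for 251 of the higher and 2 of the lower genes, Retnla and Mgl2. Over all genes tested, the median difference was -0.02 on the log2 scale. Without sample 31, 155 genes were called, 150 of them from the 384. Without WT sample 34, 213 were called, 202 of them from the 384. Without zQ175 sample 32 or 33, 190 and 164 were called. In a fit of the 8 samples of this age alone, 108 genes were called, 97 of them from the 384.

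Part of the disease-associated set was higher in zQ175, while no homeostatic marker passed the test. Of the 22 disease-associated genes tested, 10 rose and 0 fell, beside 2.8% of all genes tested called higher, and the list's median difference was 0.35. In WT mice at 6 months, 8 of the 22 were at least 2 log2 units higher in microglia than in the astrocyte and doubly negative fractions. Another 2 were at least 2 log2 units higher in another fraction than in microglia. Igf1, a growth factor that microglia release, rose 4.35-fold. Gpnmb, a transmembrane glycoprotein of lysosome-rich macrophages, rose 7.47-fold. Axl, a receptor for dying cells, rose 2.82-fold, and Cst7, an inhibitor of lysosomal cathepsins, rose 2.72-fold.

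**Figure D1:**
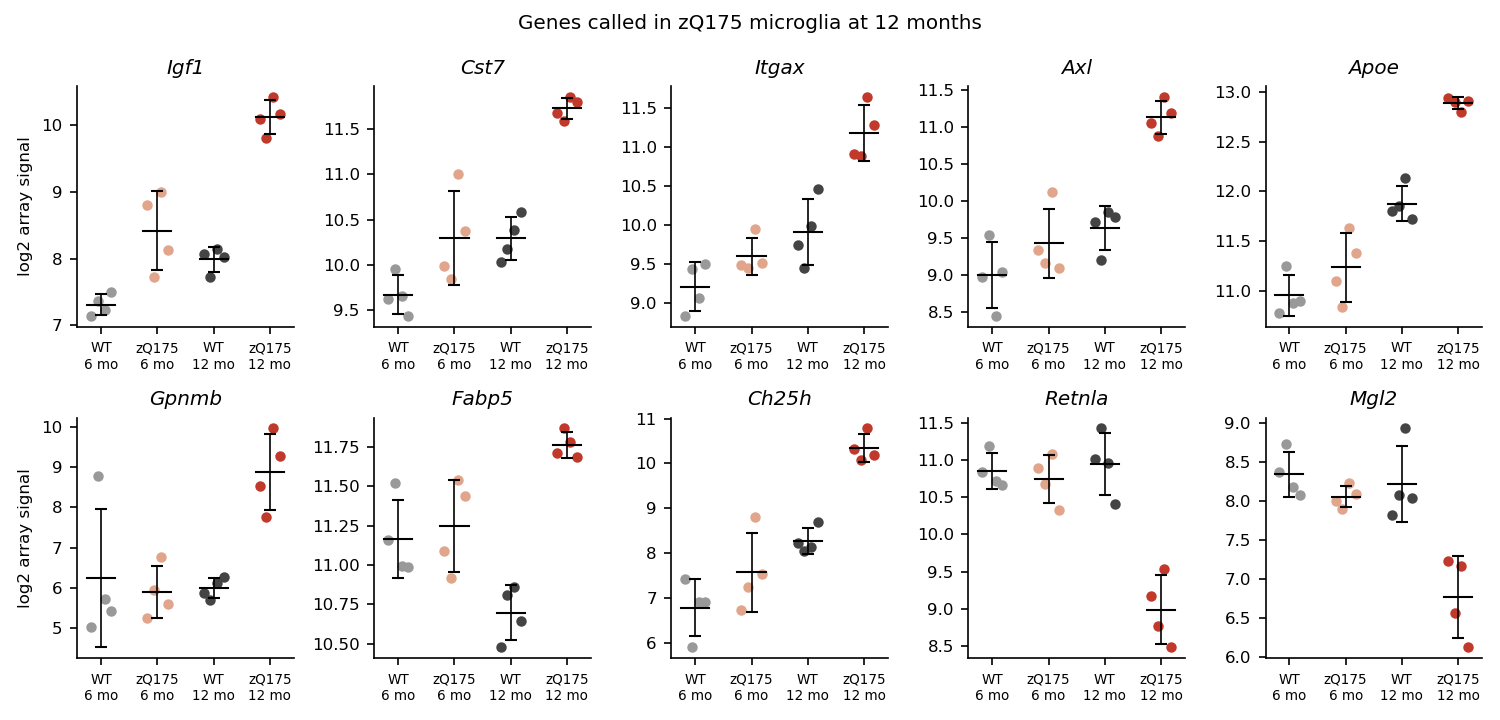
Log2 array signal of 8 genes that rose and 2 that fell in zQ175 microglia at 12 months (points, samples; bars, mean ± SD, n = 4), with the 6-month samples beside them. The zQ175 samples at 12 months lie apart from the WT samples of that age in every panel, while at 6 months zQ175 and WT overlap in every panel other than Igf1.

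Igf1 stood at 10.08, 9.80, 10.41 and 10.16 in zQ175 samples 30 to 33 and at 8.07, 7.72, 8.15 and 8.02 in WT samples 34 to 37. Every zQ175 sample lay above every WT sample, by a difference of means of 2.12 ± 0.23 (SE, adjusted p = 0.00147). All 4 Igf1 probe sets had a positive difference, from 2.12 to 2.50. Gpnmb varied more, with 8.55, 7.76, 9.97 and 9.27 in zQ175 against 5.86, 5.70, 6.12 and 6.26 in WT. Its groups did not overlap, and the difference was 2.90 ± 0.67 (adjusted p = 0.0309). The Gpnmb call was lost when any of 6 samples was left out, with WT sample 34 among them (adjusted p = 0.077), and held without sample 31 (adjusted p = 0.04).

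Cst7 was tight within groups, at 11.68, 11.59, 11.86 and 11.80 in zQ175 and 10.03, 10.17, 10.38 and 10.58 in WT (difference 1.44 ± 0.21, adjusted p = 0.00325). Itgax, the CD11c integrin subunit, stood at 10.90, 10.88, 11.64 and 11.27 in zQ175 and 9.75, 9.46, 9.98 and 10.46 in WT (difference 1.26 ± 0.23, adjusted p = 0.00982). For both genes the lowest zQ175 sample lay above the highest WT sample, by a narrower margin for Itgax. Axl was at 11.05, 10.87, 11.41 and 11.19 in zQ175 and at 9.72, 9.19, 9.85 and 9.78 in WT (difference 1.498 ± 0.25, adjusted p = 0.00673). The second Axl probe set differed by only 0.04, so the Axl value rests on the brighter set.

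Apoe, the main lipid carrier of the brain, was at 12.94, 12.90, 12.80 and 12.91 in zQ175 and 11.80, 11.85, 12.13 and 11.73 in WT. The zQ175 samples were nearly equal and all above WT, and the rise was 2.02-fold (1.01 ± 0.15, adjusted p = 0.00465). Lpl, lipoprotein lipase, rose 1.86-fold (0.89 ± 0.13, adjusted p = 0.00315), Csf1, a ligand of the receptor on which microglial survival depends, 1.77-fold (0.82 ± 0.15, adjusted p = 0.0117) and Ank, a phosphate transporter, 1.48-fold (0.57 ± 0.12, adjusted p = 0.0215). Clec7a, the beta-glucan receptor Dectin, rose 1.77-fold (0.82 ± 0.18, adjusted p = 0.0269), but its call was lost without sample 31 (adjusted p = 0.071) and without WT sample 34 (adjusted p = 0.07). The receptor and adaptor on which this state depends did not pass the test, with Trem2 at 13.05 ± 0.05 in zQ175 and 13.04 ± 0.05 in WT (adjusted p = 0.971) and Tyrobp at 13.30 ± 0.05 and 13.25 ± 0.05 (adjusted p = 0.878). Without sample 31, 9 members of the list were called, and without WT sample 34, 8.

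Promoter sequences of the called members were read from RefSeq (assembly GRCm38.p6), over 250 bases before to 50 after the start of the gene (the top listed window of each gene), and 9 of the 10 had such a window. The letters of a broad form of the AP-1 motif, TGANTCA on either strand with any base at N, were found in 4 of these 9. The share over 27025 promoter windows, counted in the same way, was 7.93%. The base at N was C in Gpnmb, G in Itgax, T in Cst7 and A in Igf1. AP-1 is the family of Fos and Jun transcription factors. The E-box CACGTG and the myeloid PU.1 motif GAGGAAGT were found in 0 of the 9, against 7.24% and 3.28% of all windows. A match is a description of the letters and does not show binding. The 4 windows with the AP-1 letters are shown with that match in capitals.
Cst7, chr2:150570165-150570464, plus strand: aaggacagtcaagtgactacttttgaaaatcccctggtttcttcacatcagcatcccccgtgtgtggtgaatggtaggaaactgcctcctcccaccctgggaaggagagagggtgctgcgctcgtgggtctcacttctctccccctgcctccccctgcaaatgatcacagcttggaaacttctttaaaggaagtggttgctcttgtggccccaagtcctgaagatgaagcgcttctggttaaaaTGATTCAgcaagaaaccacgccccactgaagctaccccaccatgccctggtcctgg
Gpnmb, chr6:49036268-49036567, plus strand: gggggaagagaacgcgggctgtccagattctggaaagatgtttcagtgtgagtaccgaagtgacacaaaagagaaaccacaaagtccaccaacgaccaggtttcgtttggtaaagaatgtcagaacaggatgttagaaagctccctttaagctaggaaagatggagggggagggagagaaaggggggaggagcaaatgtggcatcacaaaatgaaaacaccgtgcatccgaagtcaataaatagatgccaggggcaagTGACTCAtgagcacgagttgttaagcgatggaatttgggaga
Igf1, chr10:87860861-87861160, plus strand: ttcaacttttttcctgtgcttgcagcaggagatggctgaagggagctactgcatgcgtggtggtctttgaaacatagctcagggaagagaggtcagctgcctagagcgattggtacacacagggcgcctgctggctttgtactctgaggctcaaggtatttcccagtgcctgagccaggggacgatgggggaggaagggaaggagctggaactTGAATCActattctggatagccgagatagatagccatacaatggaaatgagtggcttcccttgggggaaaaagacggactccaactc
Itgax, chr7:128129300-128129599, plus strand: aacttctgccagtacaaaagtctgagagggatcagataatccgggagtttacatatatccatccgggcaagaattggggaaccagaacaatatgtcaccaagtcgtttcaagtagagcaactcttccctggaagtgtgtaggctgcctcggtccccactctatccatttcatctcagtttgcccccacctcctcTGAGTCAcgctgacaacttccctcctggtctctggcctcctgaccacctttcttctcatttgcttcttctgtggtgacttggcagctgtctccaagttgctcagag

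Lipid transport genes overlap with the disease-associated list in Apoe and Lpl. Of 18 tested, 8 rose and 0 fell, beside 2.8% of all genes tested called higher, with a median difference of 0.70. Of the 18, 5 had at least 2 log2 units more RNA in another sorted fraction than in microglia. With the mean oligodendrocyte marker level as a covariate, a fit described further on, the median was 0.35, and with a vascular covariate as well it was 0.15. Fabp3, a carrier of fatty acids, was at 9.47, 9.49, 9.30 and 9.33 in zQ175 and 7.31, 7.16, 7.69 and 7.79 in WT (3.76-fold, 1.91 ± 0.24, adjusted p = 0.00158). The groups did not overlap, but the dimmer Fabp3 probe set differed by -0.18. Fabp5, another such carrier, was at 11.71, 11.87, 11.78 and 11.69 in zQ175 and 10.48, 10.81, 10.86 and 10.64 in WT (2.09-fold, 1.07 ± 0.15, adjusted p = 0.00315). Ch25h, the enzyme that makes 25-hydroxycholesterol, was at 10.33, 10.07, 10.78 and 10.20 in zQ175 and 8.23, 8.05, 8.14 and 8.69 in WT (4.19-fold, 2.07 ± 0.38, adjusted p = 0.0111). All 4 zQ175 samples lay above all WT samples for both. Apoc1 and Apoc4, small apolipoproteins of the Apoe cluster, rose by 1.88 ± 0.46 (adjusted p = 0.0414) and 0.74 ± 0.18 (adjusted p = 0.0381) on the log2 scale. Acaca, the committing enzyme of fatty acid synthesis, rose by 1.15 ± 0.26 (adjusted p = 0.0282). The calls of Apoc1 and Acaca were lost without sample 31 (adjusted p = 0.081 and 0.066), those of Apoc1, Apoc4 and Acaca without WT sample 34 (adjusted p = 0.051, 0.079 and 0.086).

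Cholesterol synthesis genes had 0 calls among 18 tested, beside 2.8% of all genes tested called higher and 0.344% lower, with a median difference of 0.30. All zQ175 samples lay above all WT samples for 6 of the 18, beside 6.42% of all genes tested. Of the 18, 9 had at least 2 log2 units more RNA in another sorted fraction than in microglia. The median was 0.06 with the oligodendrocyte covariate and -0.004 with the vascular covariate as well.

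The homeostatic list had 0 calls among 17 genes tested and a median difference of -0.06. P2ry12 was at 12.39 ± 0.10 in zQ175 and 12.53 ± 0.13 in WT (adjusted p = 0.618), Tmem119 at 13.02 ± 0.11 and 13.11 ± 0.03 (adjusted p = 0.756) and Cx3cr1 at 12.74 ± 0.09 and 12.89 ± 0.14 (adjusted p = 0.51). The groups overlapped for all 17.

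Of 21 interferon-stimulated genes tested, 3 rose and 0 fell, beside 2.8% of all genes tested called higher, with a median difference of 0.46 and 18 positive differences. Usp18, which dampens interferon receptor signalling, was at 9.76, 9.89, 9.75 and 9.46 in zQ175 and 9.05, 8.93, 9.03 and 8.95 in WT (0.73 ± 0.16, adjusted p = 0.0231). Cxcl10, a T-cell attracting chemokine, differed by 0.83 ± 0.17 (adjusted p = 0.0196) and Ifit2, an RNA-binding antiviral protein, by 0.84 ± 0.20 (adjusted p = 0.0352). The groups did not overlap for any of the 3. Without sample 31 none of the 3 was called (adjusted p = 0.079, 0.058 and 0.1), and without WT sample 34, 2 were. Astrocytes of the same age had a median difference of 0.41 for this list, with list means of 8.245 ± 0.13 in zQ175 and 7.775 ± 0.15 in WT. The difference between the effects in microglia and astrocytes passed the test for 0 of the 21.

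Other immune lists had 0 or 1 calls, beside 2.8% of all genes tested called higher and 0.344% called lower. Antigen presentation (16 tested), complement (9), lysosome and phagocytosis (21) and border macrophage (8) genes had 0 calls, with medians of -0.04, -0.04, -0.02 and -0.23. Of 22 inflammatory cytokine and NF-kB genes, 1 fell, Il6, from 8.88 ± 0.30 in WT to 8.29 ± 0.26 in zQ175 (-0.59 ± 0.15, adjusted p = 0.0448), and its groups overlapped. The Il6 call was lost without sample 31 (adjusted p = 0.13) and without WT sample 34 (adjusted p = 0.12). Of 15 glucocorticoid response genes, 1 fell, Fkbp5, a chaperone of the glucocorticoid receptor (-0.79 ± 0.17, adjusted p = 0.0256). Of its 3 probe sets, 1 had a difference of the opposite sign, 0.32, and the call was lost without sample 31 (adjusted p = 0.072).

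The largest falls were those of Retnla and Mgl2, both known from alternatively activated macrophages. Retnla, a secreted resistin-like protein, was at 9.18, 8.78, 9.53 and 8.48 in zQ175 and 11.01, 11.42, 10.95 and 10.41 in WT. Every zQ175 sample lay below every WT sample, and Retnla fell 3.88-fold (-1.96 ± 0.24, adjusted p = 0.00162). Mgl2, a galactose-binding lectin of macrophages and dendritic cells, was at 7.23, 6.57, 7.16 and 6.12 in zQ175 and 7.82, 8.07, 8.93 and 8.04 in WT. It fell 2.73-fold (-1.45 ± 0.26, adjusted p = 0.00982), also with no overlap. Both calls held when each of the 8 samples was left out in turn. Both genes are also expressed by macrophages outside the parenchyma, and the border macrophage markers had a mean of 8.40 ± 0.79 in zQ175 (7.66 to 9.18) and 8.73 ± 0.29 in WT (8.48 to 9.12), with 0 of 8 called. Their part in these falls was not tested. In these bulk samples, fewer cells of a type and less RNA per cell cannot be told apart.

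The next falls were smaller. Exog, a mitochondrial nuclease, fell by 0.87 ± 0.19 on the log2 scale (adjusted p = 0.0259) and Plekha8, a glycolipid transfer protein, by 0.82 ± 0.18 (adjusted p = 0.0259), and both calls were lost without sample 31 (adjusted p = 0.081 and 0.086), that of Plekha8 also without WT sample 34 (adjusted p = 0.057). Eva1a, an autophagy regulator, fell by 0.81 ± 0.17 (adjusted p = 0.021) and was called with each sample left out in turn.

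Several of the largest rises were of genes with more RNA in other fractions than in microglia. Mamdc2, which encodes a proteoglycan of the extracellular matrix, had the largest of all, from 3.87, 3.83, 4.95 and 5.45 in WT to 8.53, 8.01, 8.87 and 8.21 in zQ175 (14.7-fold, 3.88 ± 0.47). The groups did not overlap, but Mamdc2 passed the filter on dim genes only through the zQ175 samples of this age, so its p is not given. It entered the test in 4 of 8 fits with a sample left out, and was too dim in each that left out a zQ175 sample. Of the 342 higher genes, 11 were of this kind, with a mean over the other 3 groups of the fit below the lowest mean over all 4 groups of any gene tested, and of the 42 lower genes 0 were. Thsd7a was at 8.77, 8.66, 8.34 and 8.56 in zQ175 and 3.55, 5.25, 5.89 and 5.81 in WT (3.46 ± 0.44, adjusted p = 0.00169), with WT sample 34 the lowest. The second Thsd7a probe set differed by 0.07. Pcdh11x, a protocadherin, rose by 2.98 ± 0.47 (adjusted p = 0.00589) and Nid1, a basement membrane protein, by 2.56 ± 0.50 (adjusted p = 0.0138), where zQ175 sample 31 was the highest at 8.84 against 6.66 to 7.55 in the other zQ175 samples. Of 3 Nid1 probe sets, 1 had a positive difference, and the lowest difference among them was -0.18. In WT mice at 6 months, Mamdc2 was at 4.52 in microglia, 7.98 in astrocytes and 9.25 in the doubly negative fraction, and Nid1 at 5.64, 8.67 and 11.67. Klrb1a, a lectin receptor of natural killer cells, and Cd72, a lectin best known from B cells, rose by 2.44 ± 0.45 (adjusted p = 0.0116) and 1.56 ± 0.19 (adjusted p = 0.00147), and both were lower in the WT astrocyte and negative fractions than in WT microglia.

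**Figure D2:**
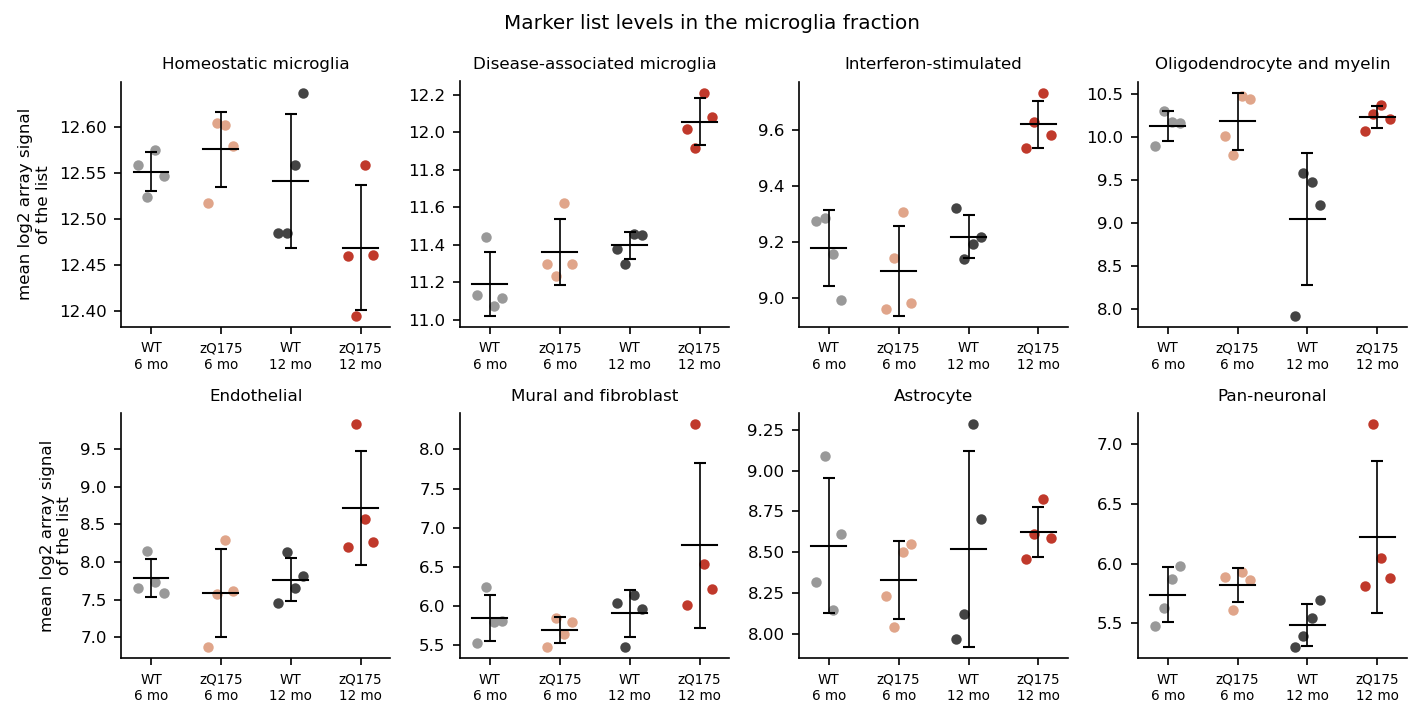
Mean log2 array signal of the members of 8 marker lists in each microglia sample at 6 and 12 months (points, samples; bars, mean ± SD, n = 4). Oligodendrocyte and myelin markers were low in WT at 12 months and about equal in the other 3 groups, and endothelial, mural and pan-neuronal markers were highest in 1 zQ175 sample, number 31.

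Oligodendrocyte RNA was present in the microglia fraction and differed between the groups. The oligodendrocyte and myelin markers had means of 10.06, 10.27, 10.36 and 10.21 in zQ175 samples 30 to 33 and 7.92, 9.58, 9.48 and 9.20 in WT samples 34 to 37. All zQ175 samples lay above all WT samples, with group means of 10.23 ± 0.13 and 9.05 ± 0.77. At 6 months the means were 10.18 ± 0.33 in zQ175 and 10.13 ± 0.17 in WT, so that the WT group at 12 months was the low one of the 4. In the astrocyte fraction at 12 months they were 11.86 ± 0.10 in zQ175 and 11.62 ± 0.26 in WT, and in the negative fraction 11.60 ± 0.21 and 11.07 ± 0.73.

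Of 17 oligodendrocyte and myelin markers tested, 6 rose and 0 fell, beside 2.8% of all genes tested called higher. All 17 differences were positive, and the median was 1.24. Mog, a protein of the outer myelin surface, was at 10.85, 11.16, 11.29 and 11.06 in zQ175 and 8.38, 10.09, 10.06 and 9.74 in WT (1.52 ± 0.31, adjusted p = 0.0199). The groups did not overlap, and WT sample 34 lay far below the rest. Mag, a myelin adhesion protein, rose by 1.29 ± 0.25 (adjusted p = 0.0135) and Enpp6, a choline phosphodiesterase of newly formed oligodendrocytes, by 2.27 ± 0.33 (adjusted p = 0.00325). Ppp1r14a, Gjb1 and Hapln2 rose by 1.90 ± 0.38, 1.63 ± 0.40 and 1.24 ± 0.28 (adjusted p = 0.0182, 0.0403 and 0.0286). Without sample 31 the calls of Mog, Gjb1 and Hapln2 were lost (adjusted p = 0.056, 0.087 and 0.098), and without WT sample 34 those of Gjb1 and Hapln2 (adjusted p = 0.073 and 0.077). Mbp, the major myelin basic protein, was already at 12.14 ± 0.57 in WT and at 12.57 ± 0.08 in zQ175 (adjusted p = 0.337). Without WT sample 34 the list's median was 0.80 with 4 calls, and without zQ175 sample 31 it was 1.22 with 3 calls. Of 7 oligodendrocyte precursor markers tested, 2 rose, beside the same 2.8%. These were Cspg4, by 1.95 ± 0.32 (adjusted p = 0.00673), and Olig1, by 1.94 ± 0.40 (adjusted p = 0.0211). The homeobox regulator Nkx2-2, which oligodendrocyte precursors use, rose by 2.29 ± 0.45 (adjusted p = 0.0142).

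Of 20 endothelial markers tested, 1 passed the test, beside 2.8% of all genes tested called higher. The endothelial markers had means of 8.20, 9.83, 8.58 and 8.27 in zQ175 and 7.46, 8.13, 7.66 and 7.81 in WT, with all 20 tested differences positive, a median of 1.13 and 1 call. Fn1, fibronectin, was that call (1.26 ± 0.32, adjusted p = 0.0496), and it was lost without sample 31 (adjusted p = 0.12) and without WT sample 34 (adjusted p = 0.11). Cldn5, the tight junction protein that defines brain endothelium, was at 8.39, 11.37, 8.91 and 8.49 in zQ175 and 7.47, 8.14, 7.10 and 7.81 in WT, and did not pass the test (adjusted p = 0.169). For Cldn5 every zQ175 sample was above WT, with sample 31 alone far above. The mural and fibroblast markers had 0 calls among 12 and a median of 1.003. Without sample 31 the endothelial median fell to 0.60 and the mural one to 0.37, with 0 calls in both. In the doubly negative fraction, to which these cells sort, the endothelial markers stood at 11.75 ± 0.24 in zQ175 and 12.01 ± 0.11 in WT at this age.

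Markers of other cell types were examined as well, and their counts stand beside 2.8% of all genes tested called higher. Of 19 astrocyte markers, 1 rose, S100b, which oligodendrocyte lineage cells also express, by 2.18 ± 0.34 (adjusted p = 0.00526), and the median was 0.01. Of 12 pan-neuronal markers, 2 rose, the neuronal hydrolase Uchl1 by 2.27 ± 0.43 (adjusted p = 0.0131) and the tubulin Tubb3 by 2.37 ± 0.56 (adjusted p = 0.0345), with a median of 0.72. Sample 31 was the highest for both, at 9.66 and 9.86, and without it Uchl1 was still called (adjusted p = 0.039) and Tubb3 was not (adjusted p = 0.079). Without WT sample 34 Tubb3 was not called either (adjusted p = 0.11). Medium spiny neuron genes (12 tested), ependymal and young neuron markers (7), blood cell markers (9) and proliferation genes (11) had 0 calls, with medians of 0.16, 0.33, 0.34 and 0.66.

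To see how far the called genes belong to other sorted fractions, each gene was placed by its level in WT mice at 6 months, samples that are not part of the 12-month difference. A gene was counted as higher in another fraction when its mean in astrocytes or in the negative fraction was at least 2 log2 units above that in microglia. Of the 342 higher genes, 236 (69.0%) were of this kind, 61 of them highest in the negative and the rest in the astrocyte fraction, against 12.9% of all genes tested. Another 101 lay between, and 5 were at least 2 log2 units higher in microglia than in both other fractions, namely Igf1, Cst7, Itgax, Clec7a and Cxcl10 (named after their values were seen). The oligodendrocyte and myelin markers had means of 10.13, 11.83 and 11.06 in these WT microglia, astrocyte and negative samples. Of the 17 such markers tested, 5 reached the margin, so a gene that lay between could still be an oligodendrocyte gene. Of the 42 lower genes, 2 were higher in another fraction, 33 lay between and 7 were higher in microglia, Retnla, Mgl2 and Il6 among them. Over all tested genes higher in another fraction, called or not, the median difference was 0.62, against -0.06 over those higher in microglia. Without sample 31 those medians were 0.43 and -0.03.

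**Figure D3:**
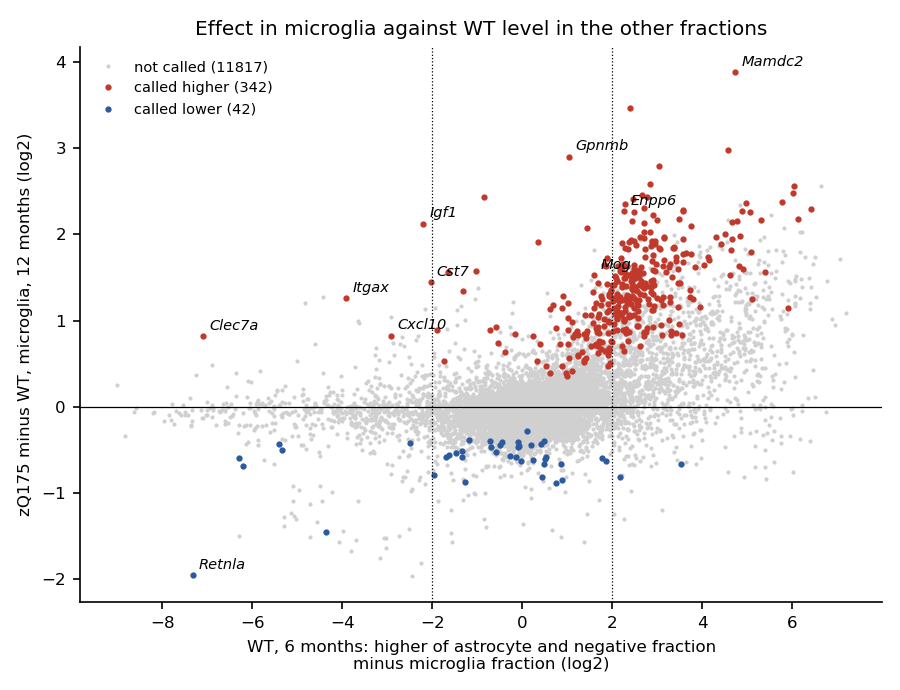
Difference between zQ175 and WT microglia at 12 months (y axis, log2) against the level in WT mice at 6 months of the higher of the astrocyte and negative fractions minus the microglia fraction (x axis, log2), for each gene tested. Most genes called higher lie to the right of the dotted line at 2, where other fractions have more of the RNA than microglia, while Igf1, Cst7, Itgax, Clec7a and Cxcl10 lie left of -2.

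The mean of the oligodendrocyte and myelin markers in each sample was then entered in the fit as a covariate. With it 0 genes were called (788 at an unadjusted p below 0.05, smallest adjusted p 0.187). The covariate separates the groups at 12 months without overlap, and 6 of its 17 genes were themselves called. A difference of genotype and a difference of oligodendrocyte RNA therefore cannot be told apart for genes that follow it. The size of the differences changed unevenly. The oligodendrocyte list's own median went from 1.24 to -0.17, a fall that is built in, since the covariate is the mean of that list. The median of the higher genes of other fractions went from 1.46 to 0.67, and that of the 5 higher genes of microglia from 1.26 to 0.996. The lower genes that lie between fractions kept a median of -0.56, from -0.58. Igf1 went from 2.12 to 2.00, Axl from 1.498 to 1.43, Gpnmb from 2.90 to 2.28, Itgax from 1.26 to 1.03, Cst7 from 1.44 to 0.996 and Retnla from -1.96 to -2.06. Apoe went from 1.01 to 0.72 and Lpl from 0.89 to 0.54. Mog and Mag, which are themselves part of the covariate, went from 1.52 to 0.24 and from 1.29 to 0.35.

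**Figure D4:**
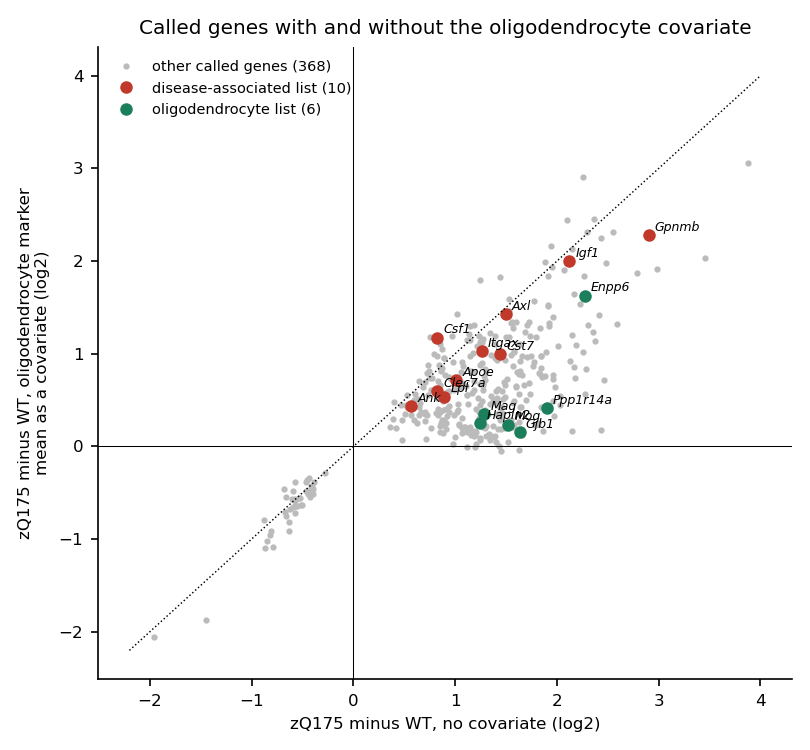
Difference between zQ175 and WT microglia at 12 months for the 384 called genes, without (x axis) and with (y axis) the mean oligodendrocyte marker level as a covariate, both in log2 units, with the dotted line marking equal values. Igf1 and Axl lie near that line. Mog and Mag lie close to 0 on the y axis, which is built in, as they are part of the covariate.

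With the mean of the vascular markers as the covariate, 13 genes were called, all 13 among the 384. They include Igf1, Fabp3, Cd72, Thsd7a and Plekhg1, which were higher, and Retnla, the only 1 that was lower. Mamdc2 is also among the 13, but it entered the test only through the zQ175 samples of this age, so its call adds no support. The median of the disease-associated list was 0.34 with this covariate. That of the endothelial list was 0.08, a fall that is built in, since its genes are part of the covariate. The endothelial means also separated the groups without overlap (8.20 to 9.83 in zQ175, 7.46 to 8.13 in WT). The mural and fibroblast means overlapped (6.02 to 8.32 and 5.48 to 6.15), and sample 31 was the highest in both lists. A difference of genotype and of endothelial RNA therefore cannot be told apart for genes that follow it. With both covariates 0 genes were called (574 at an unadjusted p below 0.05), and the median of the disease-associated list was 0.28.

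At 6 months the differences were small. In the same fit, 1 gene was called at that age, Abhd1, a hydrolase-fold gene, higher by 1.44 (adjusted p = 0.00189) and by 1.18 at 12 months. The median 6-month difference of the 342 higher genes was 0.23, against 1.29 at 12 months, and 284 of them had the same sign. For the 42 lower genes it was -0.15, against -0.58, and 34 had the same sign. Igf1 differed by 1.10 at 6 months, Cst7 by 0.63, Lpl by 0.51 and Retnla by -0.11. A test of the difference between ages itself called 0 of 12201 genes (limma, 841 at an unadjusted p below 0.05), so no gene is shown to differ between ages.

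Astrocytes of the same age and genotypes were compared in a second fit. Of the 338 genes higher in microglia that were tested there, 23 were also higher in zQ175 astrocytes, out of 216 called there (1.74% of genes tested). The difference between the effects passed the test for 114 of 12404 genes (0.919%), 76 with the effect in microglia above that in astrocytes (0.613%) and 38 below (0.306%). Those above include 5 disease-associated genes, Igf1 (difference of effects 2.11, adjusted p = 0.000398), Apoe (1.17, adjusted p = 0.000846), Axl (1.74, adjusted p = 0.000672), Gpnmb (3.18, adjusted p = 0.0158) and Clec7a (1.0, adjusted p = 0.0483), and 5 of lipid transport. Cst7 did not pass that test (0.55, adjusted p = 0.21), and it was itself higher in zQ175 astrocytes by 0.89 (adjusted p = 0.0027). The smallest p-values with the effect in microglia below were those of Atp8a2 and Lcp1, at -2.65 and -1.70. Atp8a2, a phospholipid flippase, rose by 2.52 in astrocytes (adjusted p = 4e-06) and was at 10.35 ± 0.20 and 10.48 ± 0.23 in zQ175 and WT microglia. This fit did not pair samples of the same replicate number. With that number as a block, the difference between the effects passed the test for 25 genes, 15 above and 10 below.

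Microglia of the R6/2 line, which carries a transgene for a fragment of mutant huntingtin and has an early and fast course, were compared at 12 weeks (6 R6/2 and 5 WT samples, a separate set of controls). There 315 genes were higher (2.6% of 12108) and 436 lower (3.6%). Of the 314 zQ175-higher genes tested in R6/2, 43 were also higher, out of the 315 called there, and 11 of the 42 lower genes were also lower, out of 436. The disease-associated list had 12 higher genes of 22 in R6/2 and a median of 0.48, and the interferon list had 21 of 21 and a median of 2.28. Igf1 rose by 1.98 (adjusted p = 2.6e-07), Cst7 by 2.77 (adjusted p = 6.3e-12), Axl by 2.40 (adjusted p = 1.7e-09), Apoe by 1.44 (adjusted p = 4.3e-09) and Gpnmb by 2.07 (adjusted p = 0.0034). The oligodendrocyte list had 0 calls of 17 in R6/2 and a median of 0.14.

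**Figure D5:**
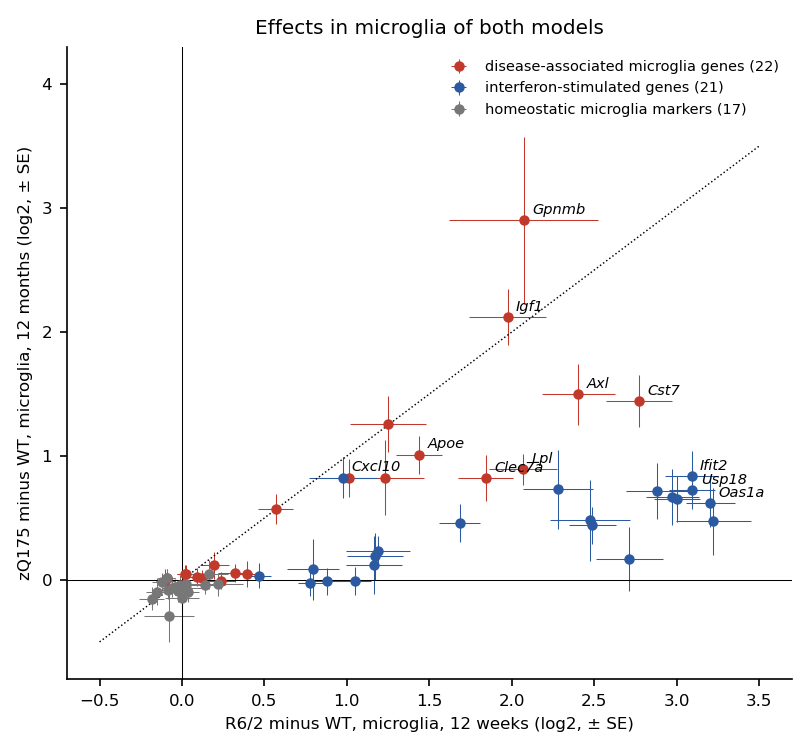
Difference from WT in microglia of zQ175 mice at 12 months (y axis) and of R6/2 mice at 12 weeks (x axis), both in log2 units ± SE, for the tested members of 3 lists, with the dotted line marking equal values. Interferon-stimulated genes lie far below the line and homeostatic markers near 0 on both axes.

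The difference between the models' effects passed the test for 232 of 12108 genes (1.92%), with the zQ175 effect higher for 148 (1.22%) and lower for 84 (0.694%), a split that turned to 111 and 121 when every array was centred on its median and to 101 and 92 when the probe sets of a gene were averaged. The zQ175 effect was lower for 18 of 21 interferon-stimulated genes, with Usp18 at 0.73 against 3.10 and a difference of -2.37 (adjusted p = 1.24e-08), and Oas1a, an antiviral synthetase, at 0.62 against 3.21 (-2.59, adjusted p = 1.24e-08). It was lower for 3 of 22 disease-associated genes, Cst7 (-1.33, adjusted p = 0.0159), Lpl (-1.17, adjusted p = 0.0432) and Clec7a (-1.02, adjusted p = 0.0304). For Igf1 the difference was 0.15 (adjusted p = 0.93). Retnla moved in opposite directions, -1.96 in zQ175 and 1.23 in R6/2 (adjusted p = 0.00049), a difference of -3.19 (adjusted p = 3.16e-07). Fkbp5 did so too, at -0.79 and 0.86 (adjusted p = 0.0002), a difference of -1.65 (adjusted p = 2.36e-05), as did Il6, at -0.59 and 0.80 (adjusted p = 0.0062), a difference of -1.39 (adjusted p = 0.00612). The border macrophage markers had a median of -0.23 in zQ175 and 0.72 in R6/2, with 0 of 8 called in either. Their part in the Retnla difference was not tested.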

How the data were processed

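RNA of sorted striatal cells was measured on Affymetrix mouse arrays. Each of 45101 probe sets has a deposited log2 value per array. The authors used affy, RMA and limma, per the submitters' processing notes, with versions and the arrays that were normalized jointly not stated there. Array medians of the 8 samples ran from 6.28 to 6.43, and the number of arrays limits the precision.

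Genes were named from the platform annotation (34958 probe sets with 1 symbol, 932 with several, 9211 with none), and for each of 18194 genes the probe set with the highest mean over all 111 arrays was used. Dim genes, with a mean in the fitted arrays below the 40th percentile of probe set means, were not tested. Two-sided tests used lmFit and eBayes of limma 3.58.1 (R 4.3.3) on the 16 zQ175 and WT microglia samples of 6 and 12 months, with Benjamini-Hochberg adjustment over all genes tested. The age difference came from this fit, the difference from astrocytes from a fit of 16 samples of 12 months, and that from R6/2 from a fit of all 8 microglia groups. The model was tested on simulated data for the 12-month comparison (12201 genes). There it recovered 36%, 68%, 90% and 96% of genes changed by 0.5, 1, 1.5 and 2 log2 units, with 3 false calls. How many of the 384 calls in the measured samples are false was not tested.

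Gene lists and the comparison itself were chosen with earlier results of these data known, so no p is given for a list. Named genes are the 12 largest rises and 12 largest falls without overlap, the 3 (or 4) list members with the smallest p, defining markers, and the 3 smallest p-values of each difference. The remaining called list members and Abhd1 were added after their values were seen. Alternatives were other filters, probe set rules, scalings, array weights, covariates, sample sets and each sample left out. List members without a probe set of 1 symbol were not analysed here.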

Additional observations from a re-analysis of the deposited data

Results flagged for a closer look

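Among 328 groups of 4 samples looked at (named genes and list means in zQ175 and WT microglia at 12 months), 20 held a sample far from the other 3 by Dixon's test. Chance gives about 1 in 20. In zQ175 sample 31, the highest values were those of the vascular genes Flt1 (10.97), Rgs5 (11.41) and Vtn (12.15), the neuronal genes Bcl11b (9.60), Uchl1 (9.66) and Sox11 (12.89), and the mean of the ependymal and young neuron markers (8.78), while Ank was lowest there (10.79). In zQ175 sample 32, Egr2 (11.33) and the means of the immediate early genes (11.002) and of the heat shock and unfolded protein response (11.58) were low, and the mean of the cholesterol synthesis genes was high (9.63). Sc5d was low in zQ175 sample 33 (9.03). In WT samples, Nfe2l3 (4.78) and Nkx2-2 (4.54) were low in sample 34, Rtp4 was low in sample 35 (9.14), and sample 37 was low in Arc (5.37) and in the mean of the immediate early genes (11.02) and high in Ifit2 (8.78) and Gfap (6.03).

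The zQ175 effect at 12 months differed between microglia and astrocytes by the test of the difference itself for 19 named genes. The effect was higher in microglia for Mamdc2 (3.72), Thsd7a (2.50), Pcdh11x (2.81), Gpnmb (3.18), Igf1 (2.11), Cspg4 (2.30), Sc5d (0.70), Idi1 (0.91), Fabp3 (2.01), Fabp5 (1.22), Plekhg1 (1.81), Cd72 (1.72), Apoe (1.17), Clec7a (1.0), Axl (1.74), Apoc1 (2.36) and Ch25h (3.19). It was lower in microglia for Atp8a2 (-2.65) and Lcp1 (-1.70).

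The zQ175 effect at 12 months and the R6/2 effect at 12 weeks differed by the same kind of test for 21 named genes. The zQ175 effect was lower for Retnla (-3.19), Mgl2 (-1.60), Filip1l (-1.08), Lpl (-1.17), Cst7 (-1.33), Usp18 (-2.37), Ifit2 (-2.25), Nlrc5 (-1.36), Il6 (-1.39), Fkbp5 (-1.65), Sult1a1 (-0.79), Oas1a (-2.59), Rtp4 (-2.35) and Clec7a (-1.02). It was higher for Enpp6 (2.20), Mag (1.31), Cspg4 (1.29), Bcl11b (2.33), Nkx2-2 (2.46), Snap25 (1.58) and Acaca (1.06).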

How the results depend on the processing

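The count of 384 genes stayed within 1.5 times without a filter on dim genes (372), with a filter at the 60th percentile (276), the mean of a gene's probe sets (365), quantile normalization (380), median centring (386), a Y-linked covariate (486) and all microglia groups in the fit (444). It was 1241 with array weights (797 higher and 444 lower), 0 with the oligodendrocyte covariate, 13 with the vascular covariate, 0 with both, 108 with 12-month samples only and 91 without zQ175 sample 31 and WT sample 34 together, an alternative chosen after seeing the data. Leaving out each sample gave 155 to 450, the lowest without zQ175 sample 31, then 164 without sample 33, 190 without sample 32 and 213 without WT sample 34. Of 59 named calls, 28 held with each sample left out in turn and 30 were lost in at least 1 such fit, while Mamdc2 entered the test in 4 of the 8 fits. The age difference had 5 calls with array weights and 0 to 1 with each sample left out (1 without WT 6-month sample 24). The difference from astrocytes had 702 calls with array weights, 231 with all zQ175 and WT groups in the fit and 51 to 159 with each sample left out, the lowest without zQ175 astrocyte sample 31. The difference from R6/2 had 432 with array weights and 122 to 271 with each sample left out, with 126 without zQ175 sample 31 and 122 without WT sample 34. The cause of these shifts was not tested.

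Microglia and astrocyte samples share replicate numbers. With the replicate number as a block, 25 genes differed between the fractions (15 higher, 10 lower). Correlations of same-numbered samples' deviations ran from -0.24 to 0.246 (median 0.128), and of other pairs from -0.367 to 0.4 (median 0.014). Not every same-numbered pair was above 0.1, and the reported fit did not treat the numbers as pairs. These correlations cannot exclude that same-numbered samples come from a shared pool, which the labels do not state. The lowest oligodendrocyte marker mean in WT at 12 months was that of the sample numbered 34 in all 3 fractions (7.92, 11.2 and 10.1 in microglia, astrocytes and the negative fraction).

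Some named genes that did not pass the test in the reported fit changed sign. With the oligodendrocyte covariate, these were Sox10 (-0.023), Kcnj10 (-0.055), Adcy5 (-0.31), Ndufv1 (-0.028), Uty (0.15), Htt (0.023), Mbp (-0.26) and Aqp4 (-0.88). With the vascular covariate, Alas2 (-0.029), Rgs5 (-0.026), Vtn (-0.19), Tagln (-0.072), Dlx2 (-0.55), Sox11 (-0.74), Rarres2 (-0.022), Sdf2l1 (0.12), Uty (0.074), Tmem119 (0.003), Pdgfrb (-0.15), Aqp4 (-0.070) and Ppp1r1b (0.20) did so. With both covariates, Cd163 (0.021), Alas2 (-0.36), Sox10 (-0.097), Rgs5 (-0.068), Kcnj10 (-0.007), Adcy5 (-0.38), Arpp21 (0.19), Dlx2 (-0.83), Sox11 (-1.20), Rarres2 (-0.049), Idi1 (-0.008), Ndufv1 (-0.016), Uty (0.27), Mbp (-0.27), Pdgfrb (-0.10), Aqp4 (-0.90) and Ppp1r1b (0.11) did so. With array weights, Cd163 (0.14), Sox11 (-0.020) and Aqp4 (-0.19) did so. With quantile normalization, Lhx9 (-0.046) did so. With median centring, Lhx9 (-0.020) did so. With the Y-linked covariate, Lhx9 (-0.007) and Ppp1r1b (0.025) did so. With the mean of probe sets, Kdm5d (-0.12) did so. Without zQ175 sample 31 and WT sample 34, Sox11 (-0.22), Aqp4 (-0.059) and Ppp1r1b (0.024) did so. With each sample left out, Lhx9 ran from -0.064 to 0.045, Kdm5d from -0.10 to 0.35, Slc1a2 from -0.45 to 0.13, Aqp4 from -0.19 to 0.57 and Ppp1r1b from -0.094 to 0.12.

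With 4 pooled samples a group, changes below 1 log2 unit were often missed in the simulation, and microglial genes that follow oligodendrocyte RNA cannot be told apart from it here. Array signal gives no count of cells.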

Other observations

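Lists that bear on the cells' general state had 0 calls in zQ175 microglia at 12 months. Proliferation genes, which mark dividing cells, had positive differences for 11 of 11 tested, with mean levels of 8.23 ± 0.38 in zQ175 and 7.64 ± 0.26 in WT (SD, n = 4 each). Of these 11 genes, 10 were at least 2 log2 units higher in another fraction than in microglia in WT mice at 6 months. Oxidative phosphorylation genes had mean levels of 11.51 ± 0.12 in zQ175 and 11.47 ± 0.11 in WT, glycolysis genes 11.07 ± 0.10 and 11.06 ± 0.09, and ribosomal protein genes 12.78 ± 0.04 and 12.73 ± 0.01. Immediate early genes, which respond to handling of the tissue, were at 11.28 ± 0.19 and 11.19 ± 0.11.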
